A study of Mus musculus with 24 samples.

Results

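The 10 genes described here encode proteins that hepatocytes release into the blood, and were followed in RNA of the mouse embryonic gut at embryonic day 12.5. The genes were chosen by symbol: Alb, Afp, Ttr, Apoa1, Apoa2, Serpina1a, Serpina1b, Fgb, Trf and Ahsg, 10 of the 26260 genes in the widest deposited table, and all 10 were listed in all 4 tables. RNA had been taken from 24 single guts. They were wildtype, homozygous Ret null, homozygous Sema3d null, or homozygous for both null alleles (double null), with 3 female and 3 male guts in each of these 4 genotypes. All genotypes were labelled with the same mix of strains, C57BL/6, 129/Sv and C3H, and the labels name no agent and no Cre driver. The series asked whether Ret, the receptor kinase for GDNF-family ligands, and Sema3d, a secreted guidance semaphorin, interact in building the enteric nervous system.

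Hepatocytes, the parenchymal cells of the liver, make most of the plasma proteins, and in the fetus this programme is switched on as the liver bud grows out of the foregut endoderm. The genes are driven by liver-enriched transcription factors, among them HNF4, FOXA and C/EBP proteins. Several of them are also active in the visceral endoderm of the yolk sac, which feeds the embryo before the liver does, and some at lower levels in gut endoderm. Afp (alpha-fetoprotein) and Alb (albumin) are the main carrier proteins of fetal and adult plasma and are neighbouring genes of a shared family. Ttr (transthyretin) carries thyroid hormone and retinol-binding protein, and Trf (transferrin) carries iron. Apoa1 and Apoa2 are the main proteins of high-density lipoprotein. Serpina1a and Serpina1b are mouse copies of alpha-1-antitrypsin, an inhibitor of neutrophil elastase. Fgb is the fibrinogen beta chain of the blood clot, and Ahsg (fetuin-A) is a mineral-binding plasma protein.

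In the GRCm38 build (GENCODE M21), Alb lies on chromosome 5 from 90460897 to 90476602 and Afp from 90490737 to 90508907, both on the plus strand and 14134 bases apart. Apoa2 lies on chromosome 1 (171225054 to 171226379, plus strand), Fgb on chromosome 3 (83040141 to 83049863, minus strand) and Ahsg on chromosome 16 (22891277 to 22899449, plus strand). Apoa1 (46228580 to 46230466, plus strand) and Trf (103204001 to 103230444, minus strand) are both on chromosome 9, far apart. Serpina1a (103853589 to 103863562) and Serpina1b (103728156 to 103830373) lie on the minus strand of chromosome 12. Reads from these copies can be hard to assign: of the 1482 stretches of 100 bases in the longest Serpina1a transcript, 47.4% also occur in another of the 5 Serpina1 copies, and of the 1663 stretches in that of Serpina1b, 19.2%. The values of both genes are therefore uncertain as to the copy.

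Promoters are shown for 4 genes whose levels differed widely between the groups below (Alb, Afp, Apoa2, Fgb) and for the pair of antitrypsin genes, whose levels differed less. Each is the 150 bases before the start in the RefSeq promoter table (GRCm38.p6), which held 8 of the 10 genes, written 5′ to 3′ on the strand of the gene. They are chr5:90460720-90460869 for Alb, chr5:90490564-90490713 for Afp, chr1:171224904-171225053 for Apoa2, all plus strand, and chr3:83049864-83050013 for Fgb, chr12:103863620-103863769 for Serpina1a and chr12:103738190-103738339 for Serpina1b, all minus strand. Capitals mark matches, on either strand, to the half-site letters GTTAAT or GTTAAC, or to a FOXA site (TGTTTAC or TGTTTGC). The 2 kinds of letters do not overlap in these windows. Another RefSeq promoter of Apoa2 (chr1:171221414-171221563) held no such match in its 150 bases and is not shown. The windows of Serpina1b and of Ahsg (chr16:22891865-22892014, not shown) lie inside the GENCODE gene spans given above, so the 2 sources differ in the start.
Alb: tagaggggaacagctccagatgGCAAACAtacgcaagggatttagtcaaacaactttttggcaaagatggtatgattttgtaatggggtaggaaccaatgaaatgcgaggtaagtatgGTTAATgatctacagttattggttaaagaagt
Afp: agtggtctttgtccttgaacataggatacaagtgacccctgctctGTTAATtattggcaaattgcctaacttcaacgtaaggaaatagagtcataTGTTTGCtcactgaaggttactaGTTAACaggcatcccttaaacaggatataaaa
Apoa2: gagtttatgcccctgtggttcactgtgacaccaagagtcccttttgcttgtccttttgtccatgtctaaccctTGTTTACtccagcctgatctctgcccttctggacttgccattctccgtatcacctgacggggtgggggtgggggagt
Fgb: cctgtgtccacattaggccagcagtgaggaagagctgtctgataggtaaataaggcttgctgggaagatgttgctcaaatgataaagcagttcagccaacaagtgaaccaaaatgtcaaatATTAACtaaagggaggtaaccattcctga
Serpina1a: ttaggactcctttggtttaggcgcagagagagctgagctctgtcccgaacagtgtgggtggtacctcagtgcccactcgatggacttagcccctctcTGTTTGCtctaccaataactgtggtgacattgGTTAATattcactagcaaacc
Serpina1b: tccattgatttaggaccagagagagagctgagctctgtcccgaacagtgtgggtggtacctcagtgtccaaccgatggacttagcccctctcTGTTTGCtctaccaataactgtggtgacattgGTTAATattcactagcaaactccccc

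The search covered 250 bases before to 50 after each start and both strands. The half-site letters were found in 5 of the 8 genes (Alb, Afp, Fgb, Serpina1a, Serpina1b) against 9.85% of 32851 promoters of the same length, and a FOXA match in 7 of 8, all but Fgb, against 8.48%. They start 32 bases before the start in Alb, at the same distance in Afp, and 29, 26 and 21 bases before it in Fgb, Serpina1b and Serpina1a. None of the 8 held the C/EBP letters TTGCGCAA or TTGCAAT (2.40% of all promoters) or the HNF4 letters CAAAGTCCA or CAAAGTTCA (0.861%), and 2 held TATAAA (Afp and Apoa2, against 13.6%). At the best ungapped offset, 206 of 295 bases were the same in the Serpina1a and Serpina1b windows. The same kinds of match thus stand in front of genes whose levels differed widely between groups and of genes that differed by far less. The widest range given below was 406-fold, for Alb, whose lowest mean was under 5 and uncertain. These matches describe letters, not binding.

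The data are 4 deposited tables of the authors' DESeq fits. Of these, 3 compare 1 null genotype each with wildtype over 12 guts, with a sex term and a single genotype term for both sexes; the fourth fits all 24 guts with terms for sex, Ret, Sema3d and their interaction. The 3 comparisons share the same 6 wildtype guts. Values per gut are unknown from these tables, and so is the depth of each library. Summed over genes, the wildtype fit held from 11526308 to 11949903 normalised counts per table. As a check of the labels, the recovered mean of Ret was 1468 and 1505 normalised counts in female and male wildtype guts against 4.69 and 4.50 in Ret null and 1.11 and 1.15 in double null guts. Sema3d had 791 and 797 in wildtype against 365 and 395 in Sema3d null and 353 and 421 in double null guts, so transcript of that gene was still counted there. Of 12 enteric neuron genes all 12 were lower and passed the test in the authors' deposited tables for Ret null and for double null, at an adjusted p below 0.05. Of all genes, 2.66% passed it for Ret null and 2.1% for double null, in either direction. Gut epithelium genes were present in every table (19 of 19 listed).

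Each 12-gut table gives the coefficients of a model with sex alone and of a model with sex and genotype. From both together the mean of each genotype and sex can be solved approximately, a mean over 3 guts, here called the recovered group mean, in normalised counts on the scale of the Ret null table. The solution takes the variance of a gene to grow with the square of its mean, and it is less exact at low counts. For Alb, Apoa2 and Ahsg the Ret null and double null fits had not converged, so their means are less certain. A recovered group mean has no spread between guts, so no test was made between groups, and whether 1 gut or all 3 carried a high mean was not tested. Each of the 3 tables yields the wildtype means, and these differed by at most 1.03-fold for females in all 10 genes, 1.08-fold for males in the 7 genes with a mean of at least 5 in every group, and 1.60-fold for males in all 10. The 24-gut table was not used in the solving, and its 40 coefficients for these genes were met with a median difference of 0.0026 log2 units. The largest difference was 0.21 (Ahsg), and in the 7 genes above it was at most 0.019.

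**Figure D1:**
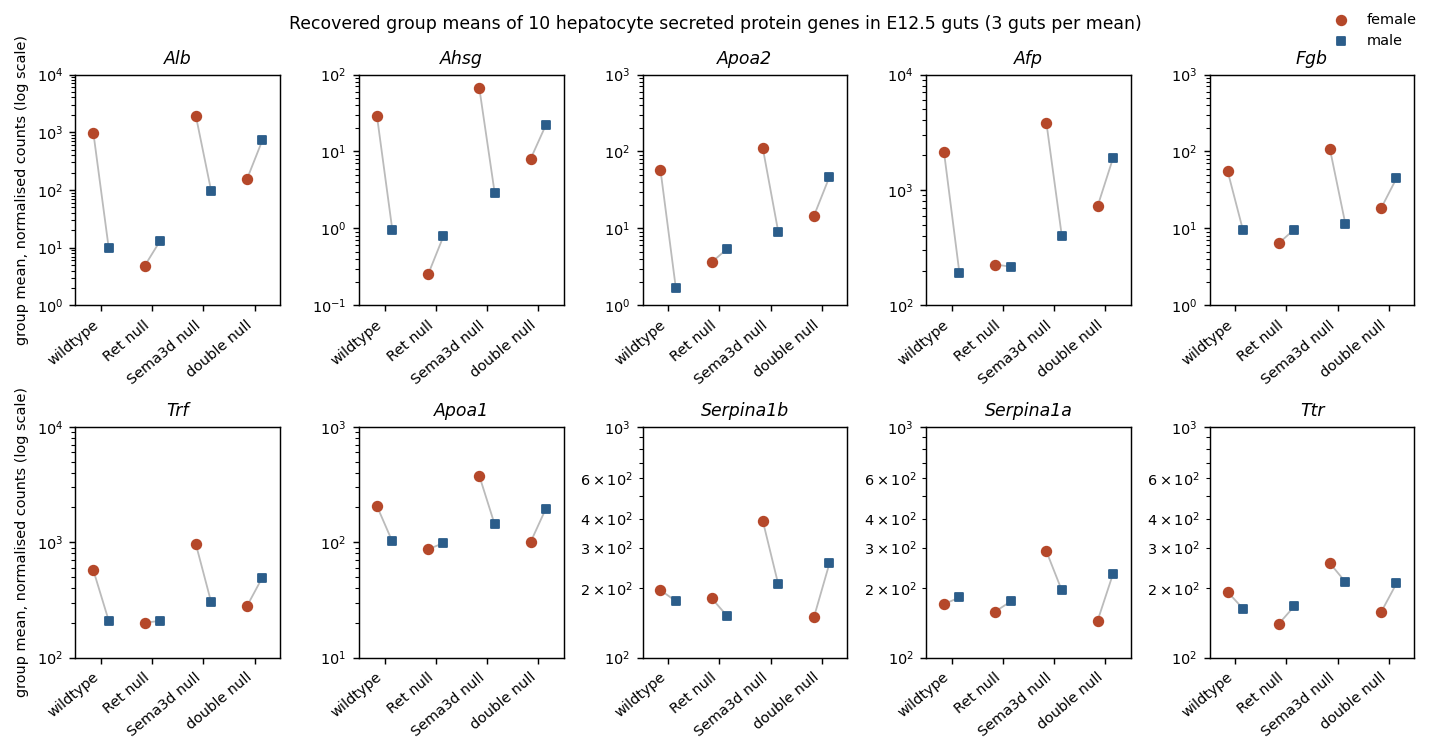
Recovered group means of the 10 genes, in normalised counts on a log axis, by genotype (horizontal) and sex (red circles female, blue squares male, joined by a grey line); each point is a mean over 3 guts and has no error bar, as the deposited tables hold none. Female Sema3d null, female wildtype and male double null guts are the high groups of the upper row. Male wildtype guts and Ret null guts of both sexes are low there. In double null guts the male mean is above the female mean in all 10 panels.

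Alb spanned the widest range of the genes for which a fold is given. Its group mean was 966 in wildtype females and 9.70 in wildtype males. It was 4.80 in Ret null females, 13 in Ret null males, 1947 in Sema3d null females and 96.6 in Sema3d null males. In double null guts it was 154 in females and 724 in males. The highest group was 406 times the lowest, and 3 groups (wildtype males and both sexes of Ret null) stood at or below 13 normalised counts. The lowest mean, 4.80, is below 5, and the Ret null and double null fits of Alb had not converged. The size of the 406-fold range is therefore uncertain.

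Afp, its neighbour on chromosome 5, showed the same order at the top on a higher base. Its means were 2124 and 192 in female and male wildtype guts, 226 and 216 in Ret null, 3812 and 403 in Sema3d null, and 722 and 1877 in double null guts. The highest group was 19.8 times the lowest. Both Ret null means lay near that of wildtype males, the lowest of the 8.

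Trf and Ttr, the other carriers, differed less. Trf had 570 and 208 in female and male wildtype guts, 201 and 208 in Ret null, 968 and 303 in Sema3d null, and 280 and 494 in double null guts. Ttr had 193 and 163, 140 and 167, 256 and 213, and 157 and 210 in the same order, a range of 1.83-fold from lowest to highest. Ttr, which lies on chromosome 18, had the narrowest range of the 10.

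The apolipoprotein genes differed from each other in range. Apoa2 had 57.4 and 1.67 in female and male wildtype guts, 3.63 and 5.41 in Ret null, 110 and 9.09 in Sema3d null, and 14.7 and 46.7 in double null guts. Apoa1 had 206 and 102, 86.8 and 98.5, 376 and 143, and 99.9 and 195 in the same order. The Apoa2 means of wildtype males and Ret null guts correspond to few counts and are the less certain ones.

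Fgb had the same 5 groups at the top as Alb and Afp, in the same order, with 56.0 and 9.56 in female and male wildtype guts, 6.41 and 9.65 in Ret null, 107 and 11.6 in Sema3d null, and 18.3 and 44.8 in double null guts. Ahsg had 29.0 in wildtype females, 66.5 in Sema3d null females, 7.95 in double null females and 22.1 in double null males. In the other 4 groups its mean was below 3 normalised counts (0.253 in Ret null females, 0.795 in Ret null males, 0.963 in wildtype males and 2.89 in Sema3d null males), and no fold is given against them. Both genes were high in the same groups as Alb.

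The antitrypsin genes had the narrowest ranges after Ttr. Serpina1a had 171 and 182 in female and male wildtype guts, 158 and 175 in Ret null, 289 and 196 in Sema3d null, and 144 and 230 in double null guts. Serpina1b had 196 and 176, 181 and 152, 390 and 208, and 150 and 256 in the same order. In wildtype and Ret null guts the sexes differed by at most 1.19-fold in either gene. In Sema3d null guts the female mean was 1.47 times the male mean for Serpina1a and 1.87 times for Serpina1b.

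Female Sema3d null guts had the highest mean in all 10 genes. In 7 genes the next groups were female wildtype and then male double null guts. Without a spread per group it cannot be said which neighbours in these orders differ beyond the variation between guts. The direction of the sex difference was not the same in the 4 genotypes: female means were above male means for 9 of 10 genes in wildtype guts and for all 10 in Sema3d null guts, and male means were above female means for all 10 in double null guts. Over genes with a mean of at least 20 and wildtype means agreeing within 1.25-fold, which left 13713 genes and 9 of these 10 (Ahsg fell below 20), a female mean at least 2-fold above the male mean was found for 6 of 9 in wildtype guts against 0.452% of all genes, and for 6 of 9 in Sema3d null guts against 0.518%. A male mean at least 2-fold above the female mean was found in double null guts for 4 of 9 against 0.357%. In Ret null guts 0 of 9 were at least 2-fold higher in females (0.168% of all genes) and 1 of 9, Alb at low means, in males (0.0656%). The 2-fold difference in all 3 of the other genotypes, in the directions named, was met by 4 of 9 (Alb, Afp, Apoa2 and Fgb) and by 0.0875% of all genes. The directions of this rule follow those seen in these same genes, so their larger share is no separate support for the pattern. These counts are descriptions of group means, with no test.

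Set against wildtype guts of the same sex, the genes differed in opposite directions in females and males for double null only. In females, Ret null guts had lower means in 10 of 10 genes, with a median log2 difference of -2.32, while in males 5 were higher and 5 lower, with a median of 0.00. Double null females had lower means in 10 of 10 genes (median -1.30), and double null males had higher means in 10 of 10 (median 1.71). Sema3d null guts had higher means in 10 of 10 genes in females (median 0.90) and in 10 of 10 in males (median 0.52). As the genes share their guts, 10 genes with the same sign are not 10 observations. The 3 sets of differences within a sex also share the same 3 wildtype guts: a high mean in wildtype females lowers every female difference, and a low mean in wildtype males raises every male one. Whether the sex difference itself depends on genotype was not tested, since the tables hold no such term.

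The authors' tests called none of the 10 genes. In the authors' deposited tables, which come from DESeq's model of counts, 0 of 10 had an adjusted p below 0.05 for Ret null (2.66% of all genes), 0 of 10 for Sema3d null (0.0404%), 0 of 10 for double null (2.1%) and 0 of 10 for the interaction (0.164%). At an unadjusted p below 0.05 in the authors' deposited tables the counts were 0 of 10 for Ret null against 8.43% of all genes, 4 of 10 for Sema3d null against 4.53%, 0 of 10 for double null against 6.71% and 2 of 10 for the interaction against 6.79%. No count test by another tool could be run without counts.

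For Ret null, the log2 coefficients of all 10 genes in the authors' deposited table were below 0, with a median of -0.93 beside a median of 0.00 over all genes. In that deposited table the authors' coefficients ranged from -3.58 ± 3.11 for Alb to -0.08 ± 0.16 for Serpina1a, where ± is an error derived from the deposited deviances. The smallest adjusted p in the authors' deposited table of Ret null was 0.809, for Ttr (-0.22 ± 0.14). The fits of Alb, Apoa2 and Ahsg had not converged there.

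For Sema3d null, all 10 coefficients in the authors' deposited table were above 0, with a median of 0.67 beside 0.01 over all genes. Ttr had 0.40 ± 0.13 in the authors' deposited table, with an unadjusted p of 0.00206 and an adjusted p of 0.547. The authors' deposited table gave 0.43 ± 0.16 for Serpina1a (unadjusted p 0.00720, adjusted 0.829) and 0.62 ± 0.25 for Serpina1b (0.0118, adjusted 0.884). Alb had 2.19 ± 1.04 in the authors' deposited table, with an unadjusted p of 0.0356 and an adjusted p of 1.00; its Sema3d coefficient in the authors' deposited table of 24 guts was 1.17, from a fit that had not converged. The genes with the smallest unadjusted p were thus those with narrow errors, not those with large coefficients, and their 95% intervals reached from 0.15 to 0.65 for Ttr and from 0.15 to 4.23 for Alb.

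For double null, 9 coefficients in the authors' deposited table were above 0 and 1, that of Apoa1 (-0.05 ± 0.50), below, with a median of 0.20 beside 0.01 over all genes. That median was 0.57 without Serpina1a and Serpina1b, 0.08 over the 7 genes with a level of at least 50, and 0.35 in the 24-gut fit. The median over both sexes stands between the female and male medians of opposite sign given above. The widest 95% interval derived from the authors' deposited table was that of Alb, -3.14 to 6.58, and the adjusted p was 1 for all 10. The fits of Alb, Apoa2 and Ahsg had not converged.

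The interaction term of the 24-gut fit asks whether the double null differs from the sum of the single null effects on the log2 scale. In the authors' deposited table for it, 6 of 10 coefficients were above 0 and 4 below, with a median of 0.79 beside 0.00 over all genes. Alb had 4.59 ± 1.38 in the authors' deposited table (unadjusted p 0.000869, adjusted 0.174), from a fit that had not converged, and Ahsg 3.79 ± 1.41 (0.00707, adjusted 0.424). The other 8 genes had unadjusted p-values from 0.111 to 0.973 in the authors' deposited table. Over the 7 genes with a level of at least 50 the median was -0.02, so its sign depended on the 3 genes of low level; without Serpina1a and Serpina1b it was 1.57.

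**Figure D2:**
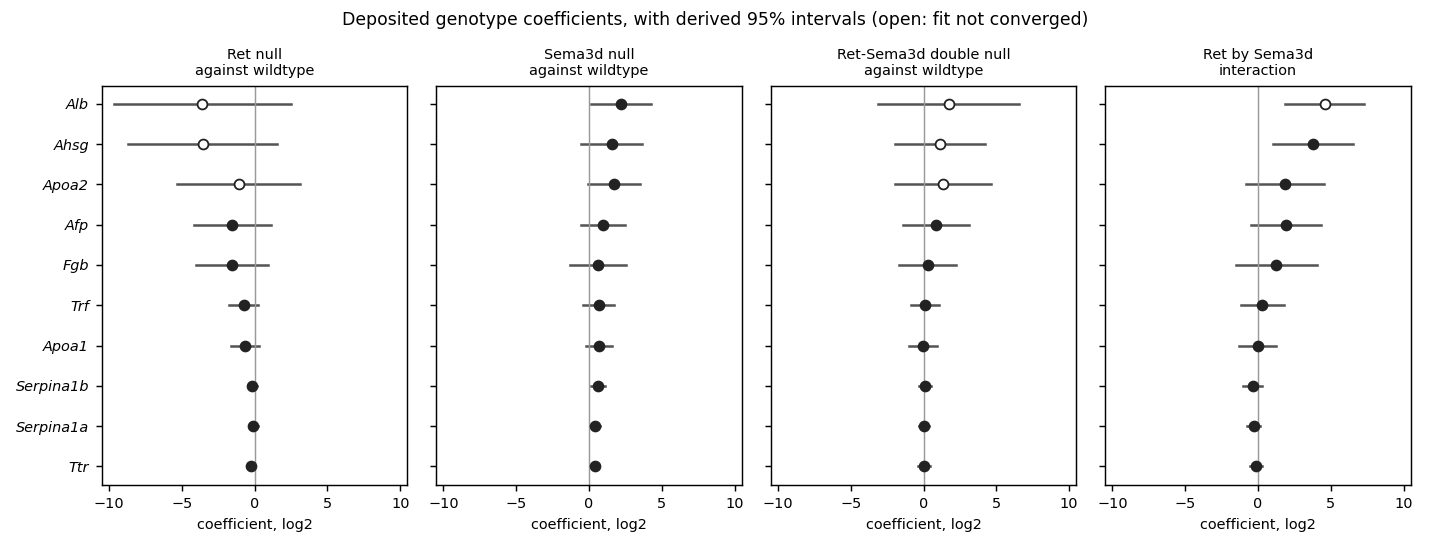
Genotype coefficients of the 10 genes in the authors' deposited tables (log2, horizontal), with 95% intervals from the derived errors; open circles mark fits that had not converged. Intervals are widest for Alb (-9.67 to 2.51 in Ret null guts) and narrowest for Ttr and the Serpina1 genes, and all 10 points lie left of 0 for Ret null and right of 0 for Sema3d null.

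The errors of Alb, Afp, Trf and Apoa1 were far above the median of other genes of like level. In the Ret null table the derived error of Alb was 3.11, 31.2 times the median of 2252 genes within 0.5 log2 units of its level, and that of Afp was 1.35, 21.7 times. In the Sema3d null table the ratios were 10.1 for Alb and 8.55 for Afp, for double null 39.6 and 21.4, and for the interaction 11.5 and 11.2. The Alb fits for Ret null, double null and the interaction had not converged, while the genes compared with it had. The errors and ratios of Alb there are therefore uncertain. Its Sema3d null fit and all fits of Afp had converged. Trf had ratios from 5.48 to 6.53 and Apoa1 from 3.85 to 4.43. Ttr, Serpina1a and Serpina1b had ratios from 1.08 to 2.32, the lowest of the 7 compared. Serpina1b was over 2 times the median in 3 tables, and its errors of 0.246 for Sema3d null and 0.328 for the interaction lay above the 95th percentile of genes with a level from 200 to 400 (0.198 and 0.265). Apoa2, Fgb and Ahsg had levels under 50 in all 4 tables and were not compared. At a level of at least 50 the median error over all genes was 0.0776, 0.111, 0.0787 and 0.136 for the 4 tables.

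**Figure D3:**
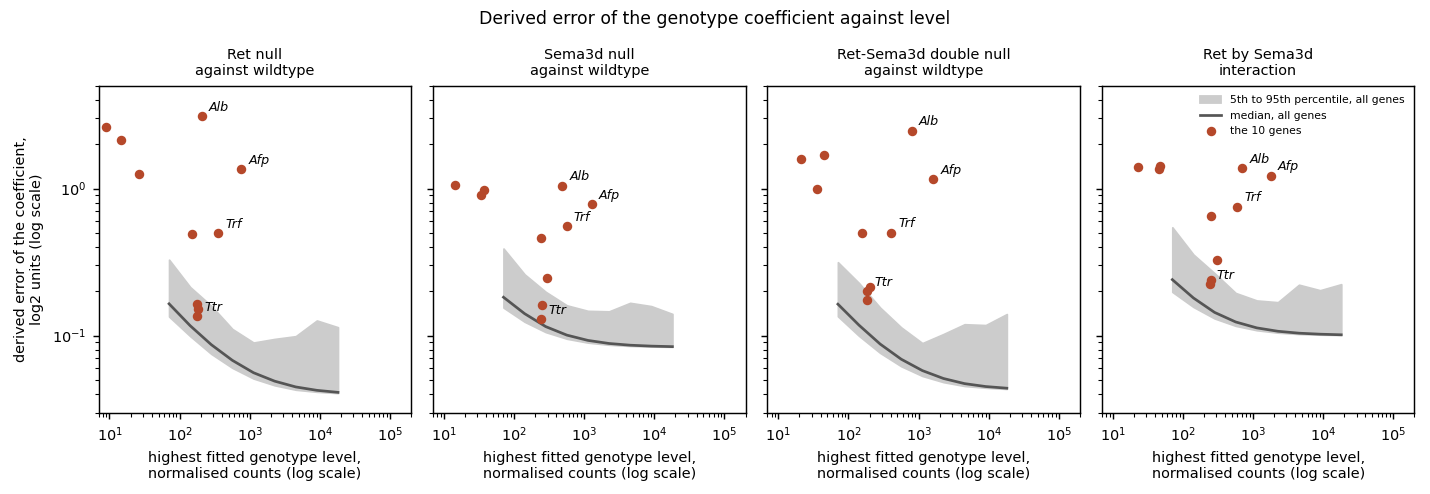
Derived error of the genotype coefficient (log2 units, log axis) against the highest fitted genotype level (normalised counts, log axis); the line and grey band are the median and the 5th to 95th percentile of all genes with a level of at least 50, and red points are the 10 genes. Alb, Afp and Trf lie above the band in all 4 panels, Alb 31.2 times the median of its neighbours for Ret null. The Alb fit had converged for Sema3d null only.

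Other liver genes were taken from lists. Of 48 further genes for secreted liver proteins, 1 of 47 listed passed the test in the authors' deposited table of Ret null, Igf2 (0.15 ± 0.04, adjusted p 0.00658), a fetal growth factor made in many tissues; 0 of 46 passed for Sema3d null, 0 of 47 for double null and 0 of 48 for the interaction, against the shares of all genes given above (2.66, 0.0404, 2.1 and 0.164%). At an unadjusted p below 0.05 in the authors' deposited tables there were 3 of 47 for Ret null (8.43% of all genes), 9 of 46 for Sema3d null (4.53%), 2 of 47 for double null (6.71%) and 4 of 48 for the interaction (6.79%). The smallest p-values of this list in the authors' deposited table for Sema3d null were those of Rbp4, the retinol carrier (0.55 ± 0.17, adjusted p 0.448), Serpina1e (0.46 ± 0.17, 0.829), Agt, the precursor of angiotensin (1.05 ± 0.42, 0.907), and Ambp (0.29 ± 0.12, 0.962). Of the 19 genes of this list that met the rule for group means, 9 were at least 2-fold higher in wildtype females than males (0.452% of all genes) and 8 in Sema3d null females (0.518%). In double null guts 6 were at least 2-fold higher in males (0.357%). Itih2, an inter-alpha-inhibitor heavy chain, had 217 and 38.3 in female and male wildtype guts, 34.9 and 42.6 in Ret null, 403 and 54.4 in Sema3d null, and 51.0 and 207 in double null guts.

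Liver transcription factors, enzymes and receptors formed another list of 38 genes. Of the 15 that met the rule for group means, 1 was at least 2-fold apart between the sexes in either direction, against 0.678% of all genes: Cps1, a urea cycle enzyme, in wildtype guts (44.8 in females and 96.6 in males), the reverse of the order of the 10 genes. In the other 3 genotypes 0 of 15 were, against 0.233% of all genes in Ret null, 0.824% in Sema3d null and 0.481% in double null guts. At shares this small, 0 of 15 does not set the list apart from other genes. The rule also left out list genes of low level. Of the 31 genes of the list with means, 12 had their highest mean in Sema3d null females, as all of the 10 genes had. Hnf4a, the factor for which many liver promoters carry sites, had means from 272 to 382 in the 8 groups, and is active in gut endoderm too. Adult liver enzymes of the list were near 0: Cyp2e1 had at most 1.26 and G6pc at most 0.886 normalised counts. The Sema3d null coefficient of G6pc (-29.3) was unbounded, meaning beyond 15 log2 units, so its means are less certain. Otc, of the urea cycle, was low and highest in female Sema3d null guts, at 5.37. Of the 36 genes of the list found there, Tdo2 (0.60 ± 0.18, adjusted p 0.0344) and Ass1 (-1.59 ± 0.16, adjusted p listed as 0) passed the test in the authors' deposited table of Ret null. Of all genes, 2.66% passed it for Ret null and 2.1% for double null. No gene of the list passed for Sema3d null or the interaction. Ass1, a urea cycle enzyme, also passed for double null (-1.31 ± 0.16, adjusted p 1.97e-14), with means of 116 and 139 in wildtype against 39.7 and 44.8 in Ret null guts, an order unlike that of the 10 genes.

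Markers of other cells that a dissected gut could carry were set beside these levels. The summed recovered means of the 10 secreted protein genes ranged from 1007 (Ret null females) to 8321 (Sema3d null females). Of 18 red cell genes, which the fetal liver and the blood both hold, all 18 were listed and 0 passed the tests in the authors' deposited tables, with 1, 1, 0 and 2 of 18 at an unadjusted p below 0.05 for Ret null, Sema3d null, double null and the interaction, beside 8.43, 4.53, 6.71 and 6.79% of all genes. Their sum ranged from 32039 in wildtype females to 44306 in Sema3d null females, mostly globins. Within this list 4 of 18 were at least 2-fold higher in wildtype females than males (0.452% of all genes), 9 of 18 in Sema3d null females (0.518%), and 0 of 18 in double null males (0.357%). In Sema3d null guts 1 of 18, the globin copy Hba-a2, was at least 2-fold higher in males. Klf1, an erythroid transcription factor, had 60.3 and 16.2 in wildtype, 22.8 and 13.5 in Ret null, 97.6 and 15.9 in Sema3d null, and 23.5 and 40.3 in double null guts (female, male). The embryonic globin Hbb-y, made by yolk sac red cells, ranged from 11040 to 14369.

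Of the liver endothelium list (9 of 10 with means, sum 1432 to 1753), 1 of the 7 genes that met the level rule, Oit3, was at least 2-fold higher in females in wildtype (27.3 against 9.92) and Sema3d null guts (54.4 against 18.3). The shares of all genes were 0.452% in wildtype and 0.518% in Sema3d null guts. Clec4g was at most 1.25, but its Ret null coefficient was unbounded (-29.6 log2 units), so its means are less certain. Stab2, a scavenger receptor, passed the test in the authors' deposited table for double null (0.41 ± 0.11, adjusted p 0.0140), 1 of 10 listed genes against 2.1% of all genes. None of the 10 passed for Ret null, Sema3d null or the interaction. The macrophage list (10 of 12 with means, sum 638 to 844) had 0 of the 6 genes that met the level rule at least 2-fold apart between the sexes in any genotype, and its Kupffer cell markers Clec4f, Timd4, Cd5l and Marco had at most 3.06. The Ret null coefficient of Marco was also unbounded (-34.8 log2 units). The summed means were 9386 to 11033 for gut epithelium (19 of 19 genes), 1761 to 2206 for pancreas (12 of 13) and 2571 to 3228 for yolk sac endoderm (10 of 11). Of the 18, 8 and 7 genes of these lists that met the level rule, 0 were at least 2-fold apart between the sexes in any genotype. The shares of all genes, in either direction, were 0.678% in wildtype, 0.233% in Ret null, 0.824% in Sema3d null and 0.481% in double null guts. With shares this small, a count of 0 does not set these short lists or the macrophage list apart from other genes. The part of liver or blood carried with the gut in the levels of the 10 genes was not tested, and in these bulk samples fewer cells of a type and less RNA per cell cannot be told apart.

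**Figure D4:**
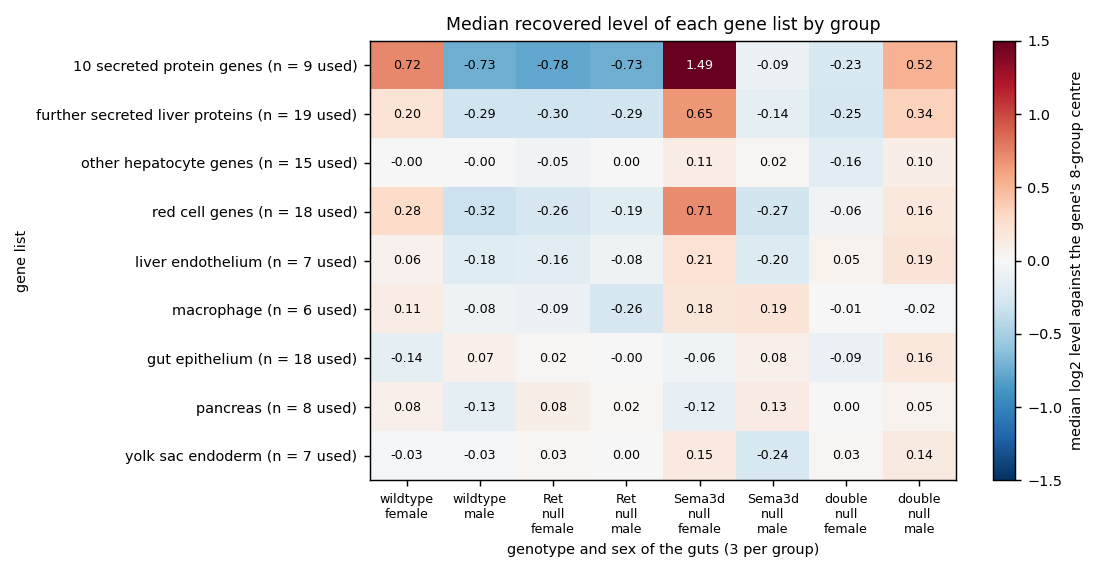
Median recovered level of each gene list in the 8 groups (columns, genotype and sex, 3 guts each), as log2 against the geometric mean of each gene over the 8 groups; n is the number of genes that met the level rule. The 10-gene row (9 genes used) runs from -0.78 in Ret null females to 1.49 in Sema3d null females, the red cell row reaches 0.71 in the same group, and the epithelium, pancreas and yolk sac rows stay between -0.24 and 0.16.

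By the likeness of their 4 coefficients (sex, Ret, Sema3d and interaction) in the 24-gut table to the medians of the 10 genes, which were -0.76, -1.18, 0.77 and 0.79, the nearest of 12409 genes included Itih2 at a distance of 0.385 log2 units, Hemgn (0.485), Pklr (0.508), Serpina6 (0.532), Trf itself (0.656), Serpinf2 (0.720), C3 (0.754), Cited4 (0.813) and Gm7336 (0.819). Itih2, Serpina6, Serpinf2 and C3 are secreted liver proteins, Pklr is pyruvate kinase of liver and red cells, and Hemgn is known from blood-forming cells. These coefficients all come from the same 24 guts.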

How the data were processed

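Poly-A RNA of 24 single guts (4 genotypes, 3 female and 3 male guts each) was sequenced from a stranded library kit, per the labels' protocols. Per the submitters' processing notes, the tools were DESeq 1.24.0, RSEM 1.2.31, STAR, Trimmomatic 0.36 and FastQC 0.11.5, and the build GRCm38 (mm10); which tool did what, and the STAR version, were not given in the sources used here. Deposited by the authors were log2 coefficients of a reduced and a full model for each gene, deviances of both models (a score of fit), and p-values with their adjusted values. The log base is not named: base 2 gave wildtype totals of 11526308 to 11949903 normalised counts and the natural base 431764398 to 455067010, and base 2 was used. The headers of the symbol and type columns are exchanged in the Ret null table and were read by content.

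A chi-square tail with 1 degree of freedom, taken at the deviance difference, gave the deposited p-values to within 4.91e-09. The derived error is the size of the coefficient divided by the square root of that difference, and 95% intervals are 1.96 errors wide to each side. Group means were solved from the reduced and full 12-gut fits, with the Sema3d null and double null tables rescaled by 3.67% and 0.748% to the Ret null table (median of 12130 genes). On simulated data (2000 genes), among the 200 genes given large differences, 99.5% of means of at least 5 were within 1.25-fold for the Ret null comparison, and 80.9% of those under 5 (47 values). For the Sema3d null comparison these were 98.7 and 63.6% (33 values), and for the double null comparison 98.5 and 76.3% (38 values). Simulated levels came from genes with converged fits, each fit was given the true variance setting, and only recovered means above 0 were scored. The shares therefore do not cover the fits that had not converged. The labels name no litter, so it is unknown which guts were littermates, and the deposited p-values take all guts as independent. Python 3.11.15, numpy 2.4.6, pandas 2.3.3 and scipy 1.17.1 were used.

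A gene counts as called where the adjusted p that the authors deposited is below 0.05. The text names the 10 genes in every table, up to 4 genes of the further secreted list with the smallest p for Sema3d null, list genes that passed a test, and those of the 10 nearest genes by the 24-gut coefficients that are reported here (some items are not reported here); Itih2, Hnf4a, Cyp2e1, G6pc, Otc, Klf1, Hbb-y, Oit3, Clec4g, Cps1, Hba-a2 and the Kupffer cell markers were chosen after their values were seen. The genes, lists and promoter letters were chosen with earlier results of these data known, so nothing here is independent support of an earlier result.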

Additional observations from a re-analysis of the deposited data

How the results depend on the processing

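The count of called genes stayed at 0 of 10 in all 4 comparisons at an adjusted p of 0.1, with the adjustment over genes with a level of at least 50, and with converged fits only; at 0.01 a count of 0 cannot rise. The median log2 change of the 10 genes kept its sign in all 4 comparisons under centring and without the antitrypsin pair, and in the 3 comparisons with wildtype under the 24-gut fit; the natural base only rescales it. Its size moved by over 1.5 times without the pair for double null (0.20 to 0.57) and the interaction (0.79 to 1.57), and for double null also with the 24-gut fit (0.35) and with genes of a level of at least 50 (0.08). With those genes only, the sign held for the 3 comparisons with wildtype and turned to -0.022 for the interaction, where 7 genes remained. Of 30 single-gene changes under the 24-gut fit, 1 changed its sign, and of 40 under centring, none. Added after seeing the data, the recovered means gave -2.32 in females and 0.0014 in males for Ret null, and -1.30 in females and 1.71 in males for double null. Leaving out single guts was not run. No paired analysis was possible because the tables hold no value per gut and no replicate number. Means under 5 normalised counts, as in Alb, Apoa2 and Ahsg, are limited by depth.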

Other observations

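Over 13713 genes, 12 (0.0875%) had female means at least 2-fold above male means in both wildtype and Sema3d null guts and male means at least 2-fold above female means in double null guts. They were Alb, Apoa2, Afp and Fgb; the further secreted liver proteins Fga, Itih2, C3, Plg, Apom and Serpina6; and Pklr and the predicted gene Gm10163. Plg, the precursor of the clot-dissolving enzyme plasmin, had 75.2 and 9.61 in female and male wildtype guts, 7.52 and 8.66 in Ret null, 114 and 19.98 in Sema3d null, and 20.01 and 60.9 in double null guts. C3, the central complement protein, had 104 and 13.4, 15.2 and 14.5, 153 and 23.99, and 24.5 and 73.6 in the same order. Gm10163 departed from the others in Ret null guts, where its means were 1167 and 712 against 598 and 14.6 in wildtype guts.

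Among the red cell genes, the adult-type globin Hbb-bs had 2612 and 1623 in female and male wildtype guts, 1692 and 1641 in Ret null, 4369 and 2120 in Sema3d null, and 1640 and 2991 in double null guts. Gata1, a transcription factor of red cell precursors, had 41.9 and 9.36, 10.98 and 10.95, 55.7 and 11.5, and 19.5 and 23.9 in the same order. Serpina1c, another antitrypsin copy, had its highest mean in male Sema3d null guts (189), unlike Serpina1a and Serpina1b.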
